A study of Rattus norvegicus with 9 samples.

Results

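Interleukins and their receptors were followed across 9 cultures of rat cardiac fibroblasts, the connective-tissue cells that build the matrix of the heart. The genes were taken by name from the count table: every symbol that begins with Il and a number, with Lif, Lifr, Osm, Osmr and Il6st added, which gave 77 of 17337 genes. The rule itself uses names and no measured value, but it was set with earlier results of these data known. The cells came from Sprague Dawley rats that carried no stated modification: fetal cells from embryonic day 18 (E18), neonatal cells from postnatal day 1 (P1) and adult cells from rats of 7 weeks, with 3 libraries per age numbered 1 to 3. All were freshly isolated cells (passage 0) grown to confluency in the same medium with fetal bovine serum, antibiotics and ascorbic acid, so each library reports cells under serum culture and not cells in the heart. No sort is stated, and nothing in the labels says whether the 3 libraries of an age came from separate animals or separate flasks of 1 isolation, so the p-values measure the spread between these libraries, which may be technical.

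Interleukins are secreted signals by which immune and tissue cells instruct each other. The IL-1 family (IL-1 alpha, IL-1 beta, IL-18, IL-33, IL-36) signals through paired receptors that recruit MyD88 and switch on NF-kB, and it is held in check by soluble antagonists and decoy receptors. The IL-6 family (IL-6, oncostatin M, LIF, IL-11) shares the signal-transducing subunit gp130, encoded by Il6st, and acts through JAK kinases and STAT3, while IL-2, IL-4, IL-7, IL-15 and IL-21 use the common gamma chain encoded by Il2rg. Cardiac fibroblasts are known as responders to IL-1, IL-6, IL-11, IL-33 and IL-17 after injury of the heart, whereas macrophages are a main source of IL-1 beta, oncostatin M, IL-10 and IL-18.

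Library totals ran from 13392825 to 22850491 assigned counts, and the adult libraries were the shallowest. The members took 0.164% to 0.211% of the counts in fetal, 0.281% to 0.287% in neonatal and 0.39% to 0.508% in adult libraries. Abundances are given below as TMM-scaled counts per 1000000 assigned counts (CPM), in the order of replicates 1, 2 and 3. The summed level of 10 fibroblast markers was 23640 to 50420 CPM in fetal, 67900 to 74160 in neonatal and 22230 to 29810 in adult libraries. Col1a1 and Col3a1 held most of this sum, and its lowest fetal library was replicate 3. Col1a2, of the same list, had only 1 to 21 counts per library, beside 155371 to 861285 of Col1a1. The cause of the low Col1a2 counts was not tested, so a low count here need not mean a scarce transcript. Single markers were split. In adult against fetal cells 4 were called higher and 3 lower (34.9% and 35.5% of all tested genes). In adult against neonatal cells 2 were higher and 5 lower (31.6% and 31.8%). Pdgfra was at 106, 109 and 151 CPM in fetal and 668.5, 383 and 245 in adult libraries, and Lum at 162, 164 and 46 and at 20.2, 39.1 and 36.7. Markers of macrophages moved with age: all 14 were higher in adult than in both younger ages, and their sum was 15.5 to 78.6 CPM in fetal, 173 to 191 in neonatal and 4829 to 6704 in adult libraries, with Cd163 at 0 counts in every fetal and neonatal library. Defining T-cell genes stayed at or near 0 in every library (Cd3d 0 counts, Cd3e at most 1, Cd3g at most 3), although Cd4, Cd8a and Lck of the same list of 9 took its sum from 1.46 to 3.77 CPM in fetal and 2.53 to 2.83 in neonatal to 107 to 129 in adult libraries. The mast cell genes Cpa3, Ms4a2 and Tpsab1 were at 0 counts in all 9 libraries, as were the B cell genes Cd79b and Ms4a1 and the neutrophil genes Mpo and S100a9. The remaining mast cell genes had counts: Kit 26 to 245 over all libraries, and Hdc 46, 12 and 14 in adult against at most 23 in younger ones. Of the neutrophil list, Csf3r had 21, 25 and 10 counts in adult and at most 7 in younger libraries, and was called higher in adult than in both younger ages. Cardiomyocyte markers ran the other way, with sums of 4760 to 5957 CPM in fetal, 2915 to 3225 in neonatal and 303 to 317 in adult libraries. Nearly all of the adult sum was Tnnt2 (302.9, 310 and 315.5 CPM). Myh6, Myh7, Tnni3, Actn2, Ryr2 and Csrp3 had at most 11 counts in any adult library. Endothelial markers were mixed: of 7 tested, 4 were called higher and 2 lower in adult than in fetal cells (34.9% and 35.5% of all tested genes). Tie1 was at most 2.13 CPM in younger libraries and 69.9, 72.5 and 68.6 in adult ones. Flt1 was at 214, 209 and 166 CPM in fetal and 78.8, 73.1 and 72.4 in adult libraries. In these bulk cultures, more cells of a type and more RNA per cell cannot be told apart, and the part of macrophage RNA in the results below was not tested.

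2 libraries stood apart within their age and are followed throughout. Fetal replicate 3 held 78.6 CPM of macrophage markers against 16.4 and 15.5 in replicates 1 and 2, and 388 CPM of epithelial and mesothelial markers against 78.7 and 78.4. Of the second list, Epcam, Krt8, Krt18 and Cdh1 were higher in it, such as Cdh1 at 112.9 CPM against 1.3 and 2.34. Krt19, Msln and Wt1 were not, such as Msln at 18.6 CPM against 18.8 and 18. Adult replicate 1 had the lowest sum of macrophage markers among adult libraries (4829 CPM, against 5839 and 6704). It was the highest adult library for 29 of the 43 members that could be tested and for 12 of their 16 ligands, against 40.6% of all tested genes. How the macrophage sum relates to these levels was not tested.

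Of the 77 members, 14 had no count in any library: Il2, Il4, Il5, Il9, Il13, Il17a, Il17c, Il22, Il36a, Il36g, Il36rn, Il5ra, Il7r and Il20ra. These include the classic T helper cell products IL-2, IL-4, IL-5, IL-13, IL-17A and IL-22. The floor of 3 counts corresponds to 0.132 to 0.23 CPM in these libraries, the level up to which a count of 0 leaves a gene's abundance open in a library, for counting error only. Whether some members are undercounted in the deposited values, a question that the low Col1a2 counts raise, was not tested. Il7r, the receptor of IL-7, lies on an unplaced scaffold in the rn6 annotation. A further 13 members did not exceed 5 counts in any library, and 7 more (Il24, Il2ra, Il2rb, Il9r, Il17rb, Il20rb and Il36b) failed the abundance filter, so that 34 members were not tested and 43 were.

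Most tested members that differed between ages were higher in the older cells. In adult against fetal cells 33 of the 43 passed the threshold (edgeR quasi-likelihood test, Benjamini-Hochberg adjusted p under 0.05), 29 higher and 4 lower, where 70.5% of all tested genes passed, 34.9% higher and 35.5% lower. In adult against neonatal cells 29 passed, 25 higher and 4 lower, where 63.5% of all genes passed, 31.6% higher and 31.8% lower. In neonatal against fetal cells 22 passed, 17 higher and 5 lower, where 36.3% of all genes passed, 18.3% higher and 18% lower. The share of members called was thus near that of all genes in the adult comparisons (76.7% and 67.4%), and the skew lay in the direction. The median log2 difference over the 43 members was 1.46 for adult against fetal, 1.01 for adult against neonatal and 0.71 for neonatal against fetal cells, where the medians over all tested genes were -0.0127, -0.00646 and -0.0053. Members with counts in 1 age only could enter the test through that age, so these counts describe the tested members and not all 77. The comparisons share libraries, and the course of each member is therefore given as its own values.

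**Figure D1:**
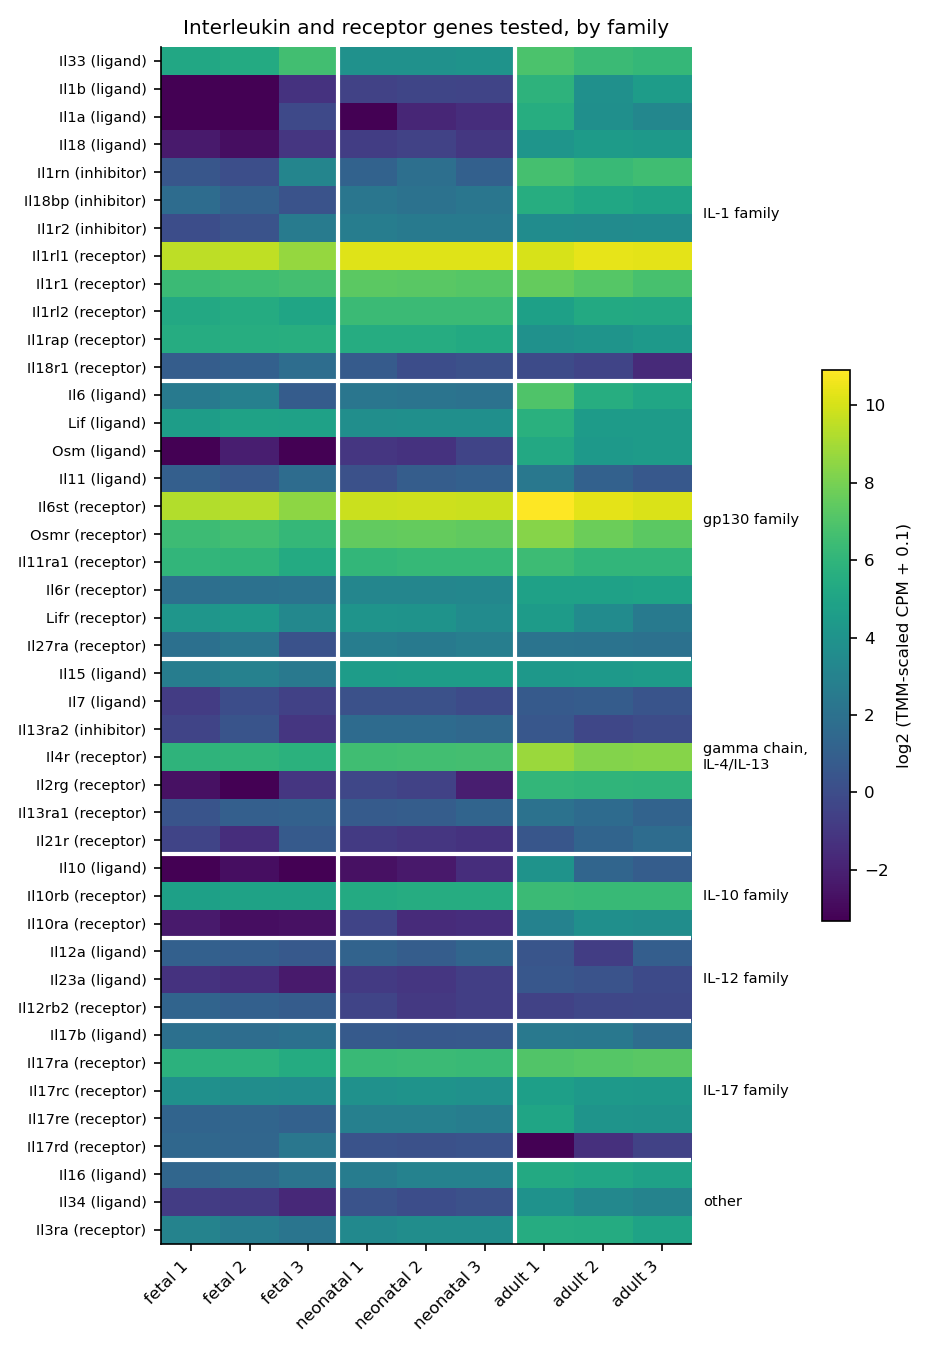
Level of the 43 tested members in each library, as log2 of TMM-scaled CPM plus 0.1 (colour), with rows grouped by family and role and columns by age. Il1rl1 and Il6st are bright in all 9 libraries, whereas Il1a, Il1b, Il18, Osm, Il2rg, Il10 and Il10ra are dark in fetal and neonatal and lighter in adult libraries.

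Among ligands of the IL-1 family, Il1a, Il1b and Il18 were close to absent in fetal and neonatal cells and present in all adult libraries. Il1b (chromosome 3, 121876259 to 121882637, rn6), which encodes IL-1 beta, the secreted form that needs cleavage by caspase-1, was at 0, 0 and 0.319 CPM in fetal, 0.605, 0.697 and 0.647 in neonatal and 58.5, 13.9 and 23.1 in adult libraries. Every adult library lay far above the younger ones, and adult replicate 1 was the highest of the 3. The log2 difference from fetal to adult was log2 8.21, SE 0.882, edgeR adjusted p = 3.83e-05 and from neonatal to adult log2 5.59, SE 0.695, edgeR adjusted p = 0.000133. Without fetal replicate 3, the only fetal library with Il1b counts, the first was 12.08. No fetal count was left in that fit, so 12.08 is not a measured ratio. Without fetal replicate 2 the first was 7.56, and without adult replicate 1 the 2 differences were 7.43 and 4.81. Il1a (chromosome 3, 121824712 to 121836122, rn6), the neighbouring gene for IL-1 alpha, which acts as an alarm signal from damaged cells, was at 0, 0 and 0.797 CPM in fetal, 0, 0.186 and 0.259 in neonatal and 47, 13.6 and 9.58 in adult libraries. It was called higher in adult than in fetal (log2 6.49, SE 1.06, edgeR adjusted p = 0.000534) and neonatal cells (log2 7.26, SE 1.16, edgeR adjusted p = 0.000578). The difference from fetal cells was 11.64 without fetal replicate 3, and 5.84 without fetal replicate 2. The fit that gave 11.64 had no fetal count left, so that value is not a measured ratio. Without adult replicate 1 the 2 differences were 5.47 and 6.25. Il18 (chromosome 8, 55009666 to 55016286, rn6), another substrate of caspase-1, was at 0.108, 0.0441 and 0.372 CPM in fetal, 0.495, 0.604 and 0.388 in neonatal and 16.8, 22.7 and 20.1 in adult libraries. It rose from fetal to adult cells (log2 6.83, SE 0.408, edgeR adjusted p = 5.97e-07, 7.95 without fetal replicate 3) and from neonatal to adult cells (log2 5.28, SE 0.356, edgeR adjusted p = 2.3e-06). Here adult replicate 1 was the lowest adult library. Between neonatal and fetal cells Il18 missed the threshold (log2 1.55, SE 0.547, edgeR adjusted p = 0.0524) and passed it without fetal replicate 3 (log2 2.68, edgeR adjusted p = 0.00421).

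Il33, the ligand of ST2 that is stored in the nucleus of stromal cells, followed another course. Il33 (chromosome 1, 248132090 to 248147030, rn6) was at 37.1, 41.1 and 98.4 CPM in fetal, 14.4, 14.9 and 15.9 in neonatal and 119, 83.2 and 70.4 in adult libraries. Its lowest age was neonatal, with no overlap with either other age: it fell by 1.97 on the log2 scale from fetal to neonatal cells (log2 -1.97, SE 0.378, edgeR adjusted p = 0.00477) and rose again in the adult (log2 2.59, SE 0.384, edgeR adjusted p = 0.000377). Fetal replicate 3 was within the adult range, and without it the adult was called higher than the fetal cells (log2 1.21, edgeR adjusted p = 0.00124, against 0.63 and 0.142 with it) and the neonatal fall was 1.38 on the log2 scale (log2 -1.38). Of the 4 other ligand genes, Il36a and Il36g had no count, Il1f10 at most 3 counts and Il36b at most 19.

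To show the sequence in front of these genes, the promoter windows of the 4 ligands with the smallest adjusted p between adult and fetal cells among those with an entry are printed here (RefSeq, build GRCr8, from 250 bases before to 50 after the annotated start). A window was found for 59 of the 77 members. Each was searched on both strands for GGG and TCC separated by 4 bases of any kind (NF-kB-type), TGANTCA (AP-1), TTCNNNGAA (STAT) and TTNNGCAA (C/EBP), and capitals mark the matches, none of which overlap each other here. Il18 is at chr8:59801822-59802121 (+), Il16 at chr1:147116693-147116992 (-), Il15 at chr19:42544456-42544755 (+) and Il1b at chr3:137036532-137036831 (-).
Il18: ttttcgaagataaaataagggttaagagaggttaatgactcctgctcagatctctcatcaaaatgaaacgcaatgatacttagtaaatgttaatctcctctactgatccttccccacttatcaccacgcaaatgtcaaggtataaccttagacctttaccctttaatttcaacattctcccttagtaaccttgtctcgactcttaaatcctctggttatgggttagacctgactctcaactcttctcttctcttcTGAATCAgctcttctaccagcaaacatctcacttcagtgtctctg
Il16: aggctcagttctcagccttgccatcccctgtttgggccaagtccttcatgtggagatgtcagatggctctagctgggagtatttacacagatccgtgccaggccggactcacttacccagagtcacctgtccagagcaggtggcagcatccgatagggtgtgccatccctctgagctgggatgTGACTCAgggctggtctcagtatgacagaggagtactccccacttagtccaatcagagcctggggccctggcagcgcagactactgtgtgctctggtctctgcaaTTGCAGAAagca
Il15: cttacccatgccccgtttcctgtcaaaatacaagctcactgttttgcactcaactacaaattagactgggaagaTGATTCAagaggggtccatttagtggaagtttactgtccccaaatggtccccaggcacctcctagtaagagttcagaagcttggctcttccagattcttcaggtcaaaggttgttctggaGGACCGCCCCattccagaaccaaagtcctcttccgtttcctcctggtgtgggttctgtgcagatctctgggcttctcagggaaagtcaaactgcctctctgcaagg
Il1b: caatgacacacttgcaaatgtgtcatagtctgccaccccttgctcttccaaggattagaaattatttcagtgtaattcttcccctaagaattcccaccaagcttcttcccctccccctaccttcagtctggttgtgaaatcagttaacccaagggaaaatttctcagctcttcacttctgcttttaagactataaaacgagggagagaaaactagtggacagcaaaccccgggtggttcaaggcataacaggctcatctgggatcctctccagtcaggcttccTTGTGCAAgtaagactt
Il18, Il16 and Il15 each hold 1 AP-1 match, starting 5 bases after, 67 before and 176 before the start site. Il15 also holds an NF-kB-type match on the reverse strand, and Il16 and Il1b a C/EBP match. Among all 33469 windows of this length, 17.9% hold the NF-kB-type letters, 7.33% AP-1, 8.87% STAT and 10.6% C/EBP. Of the 59 member genes, 16, 7, 6 and 10 had at least 1 match in at least 1 window. A match is a run of letters and not a shown binding site.

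The natural inhibitors of the IL-1 family were higher in the adult cultures as well. Il1rn (chromosome 3, 1463208 to 1468624, rn6), the IL-1 receptor antagonist, was at 1.3, 0.97 and 8.71 CPM in fetal, 2.09, 3.62 and 1.94 in neonatal and 106, 80.4 and 95 in adult libraries. All adult libraries lay far above the highest younger one, which was fetal replicate 3. Il1rn rose from fetal to adult (log2 4.70, SE 0.65, edgeR adjusted p = 0.000189, 6.38 without fetal replicate 3) and from neonatal to adult cells (log2 5.16, SE 0.677, edgeR adjusted p = 0.000183). Its neonatal level did not pass against the fetal one (log2 -0.46, SE 0.738, edgeR adjusted p = 0.653), and without fetal replicate 3 the sign turned and the gene was called higher in neonatal cells (log2 1.23, edgeR adjusted p = 0.0247). Il18bp (chromosome 1, 167091521 to 167093560, rn6), a secreted protein that captures IL-18, was at 3.13, 2.07 and 1.17 CPM in fetal, 4.73, 4 and 4.72 in neonatal and 46, 35.7 and 30.4 in adult libraries. It rose between fetal and adult cells (log2 4.14, SE 0.293, edgeR adjusted p = 1.84e-06) and between neonatal and adult cells (log2 3.06, SE 0.272, edgeR adjusted p = 1.22e-05). Its neonatal rise (log2 1.07, SE 0.303, edgeR adjusted p = 0.0227) was lost without fetal replicate 2 (edgeR adjusted p = 0.0575), neonatal replicate 1 (0.0661) or neonatal replicate 3 (0.0641). Il1r2 (chromosome 9, 46841024 to 46881236, rn6), the decoy receptor that binds IL-1 without signalling, was at 0.918, 1.15 and 6.05 CPM in fetal, 6.55, 5.85 and 5.43 in neonatal and 12.1, 11.8 and 12.1 in adult libraries. The adult level exceeded the fetal one (log2 2.16, SE 0.581, edgeR adjusted p = 0.00867, 3.51 without fetal replicate 3). Against the neonatal cells it missed the threshold (log2 1.01, SE 0.549, edgeR adjusted p = 0.138) with fetal replicate 3 in the fit and passed without it (log2 1.00, edgeR adjusted p = 3.18e-05), as did neonatal against fetal cells (log2 2.51, edgeR adjusted p = 2.63e-06, against 1.15 and 0.15 with it).

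To set agonist and inhibitor side by side, CPM were divided by the annotated exon length in kilobases. Levels per kilobase, and the orders and ratios built on them, depend on these lengths, such as 489 bases for Il15 and 7454 for Il6st. Whether the lengths cover the whole transcripts was not tested. On this scale the ratio of Il1rn to Il1b was 1.24, 3.95 and 2.81 in the adult and 2.37, 3.56 and 2.05 in the neonatal libraries, so the antagonist's transcript exceeded that of IL-1 beta in all 6 of them and the ranges overlapped. In the fetal libraries Il1b had 0, 0 and 6 counts beside 24, 22 and 164 of Il1rn. The ratio of Il18bp to Il18 was 2.07, 1.19 and 1.15 in adult and 7.24, 5.01 and 9.21 in neonatal libraries, which did not overlap. In fetal libraries it was 22.0, 35.6 and 2.38, so that fetal replicate 3 lay below every neonatal library and near the adult ones. The neonatal ratios rest on 6 to 13 counts of Il18 and the fetal ones on 2, 1 and 7. The decoy Il1r2 amounted to 0.0142, 0.0166 and 0.0772 of the signalling receptor Il1r1 in fetal, 0.0528, 0.0479 and 0.0484 in neonatal and 0.084, 0.106 and 0.145 in adult libraries. These ratios are descriptions without a test.

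Of the 5 tested signalling receptor subunits of the IL-1 family, none was called higher in adult than in neonatal cells and 2 were lower, beside 31.6% and 31.8% of all tested genes. Il1rl1 (chromosome 9, 47134034 to 47182170, rn6), which encodes ST2, the receptor of IL-33, was the most abundant member at every age per kilobase of exon, ranked 393 among all genes in fetal, 177 in neonatal and 229 in adult cells. It was at 723, 765 and 409.8 CPM in fetal, 1185, 1202 and 1179 in neonatal and 1067, 1336 and 1274 in adult libraries. It rose once, from fetal to neonatal cells (log2 0.91, SE 0.205, edgeR adjusted p = 0.00923). Adult and neonatal libraries overlapped (log2 0.044, SE 0.204, edgeR adjusted p = 0.862). ST2 is made as a membrane receptor and as a soluble decoy from the same gene, and counts per gene do not separate these forms. Il1r1 (chromosome 9, 46997798 to 47035275, rn6), the signalling receptor of IL-1 alpha and beta, was at 83.3, 88.7 and 101 CPM in fetal, 159, 157 and 144 in neonatal and 185, 143 and 108 in adult libraries. It likewise rose from fetal to neonatal cells (log2 0.76, SE 0.169, edgeR adjusted p = 0.00867) and not between neonatal and adult cells, whose libraries overlapped (log2 -0.082, SE 0.168, edgeR adjusted p = 0.689). Il1rl2 (chromosome 9, 47048915 to 47093679, rn6), the receptor of the IL-36 cytokines, rose and fell again, from 38 ± 4.49 to 83 ± 0.183 and 35.1 ± 6.78 CPM (mean ± SD, n = 3). Both steps were called (log2 1.13, SE 0.136, edgeR adjusted p = 0.000393, then log2 -1.24, SE 0.138, edgeR adjusted p = 5.02e-05). Fetal and adult cells overlapped (log2 -0.12, SE 0.138, edgeR adjusted p = 0.469).

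Il1rap (chromosome 11, 77463953 to 77593198, rn6) encodes the accessory chain that ST2, the IL-1 receptor and the IL-36 receptor all need to signal, and it fell in the adult. Its level was 44.9, 47.2 and 47.9 CPM in fetal, 44.2, 44.8 and 40.6 in neonatal and 14.5, 16.4 and 19.8 in adult libraries. All adult libraries lay below all younger ones, by 1.47 on the log2 scale against fetal (log2 -1.47, SE 0.109, edgeR adjusted p = 2.47e-06) and 1.35 against neonatal cells (log2 -1.35, SE 0.109, edgeR adjusted p = 7.02e-06). Il18r1 (chromosome 9, 47185303 to 47217403, rn6), the binding chain of the IL-18 receptor, was low everywhere, at 2.3 ± 0.819 CPM in fetal, 1.19 ± 0.358 in neonatal and 0.572 ± 0.316 in adult cells. Adult libraries lay below fetal ones (log2 -1.99, SE 0.467, edgeR adjusted p = 0.00375). Between these ages Il18 was thus called higher and Il18r1 lower. The brain-type accessory genes Il1rapl1 and Il1rapl2 had at most 2 counts in any library. 5 receptor genes of the family, Il1r2, Il1r1, Il1rl2, Il1rl1 and Il18r1, lie side by side on chromosome 9 between 46841024 and 47217403 on rn6. Within this stretch the difference between adult and neonatal cells ranged from -1.24 for Il1rl2 to 1.01 for Il1r2 on the log2 scale.

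**Figure D2:**
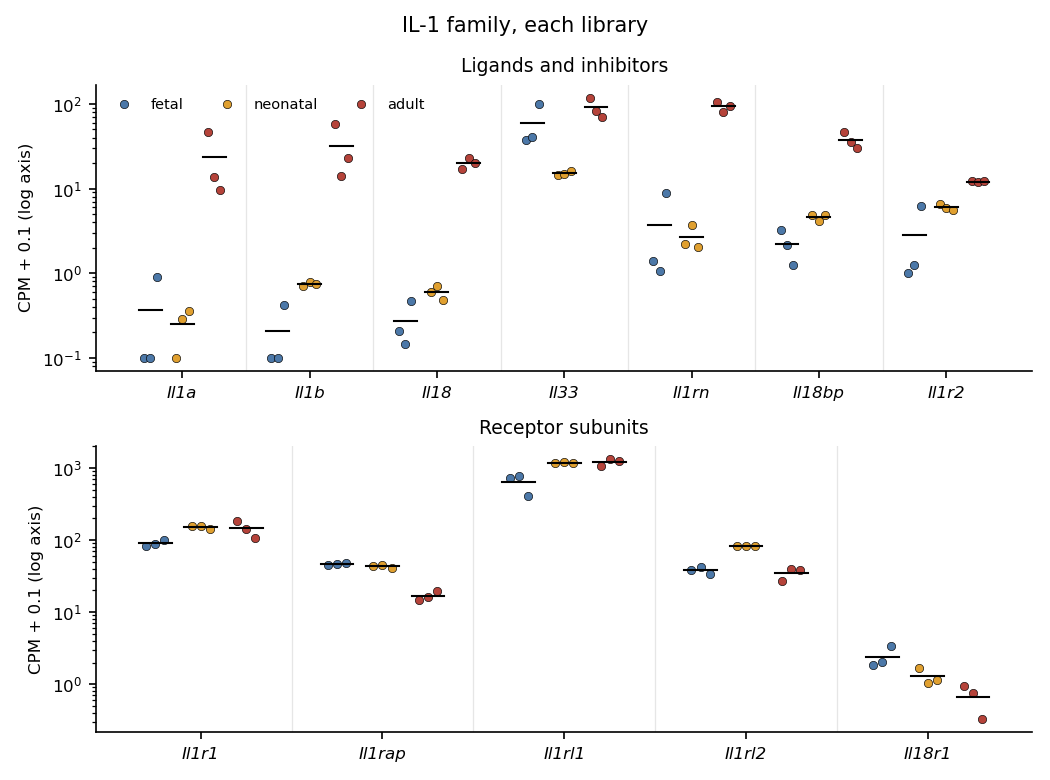
CPM plus 0.1 on a log axis of the IL-1 family in each library (points) with the mean of each age (horizontal lines), for ligands and inhibitors (top) and receptor subunits (bottom). Adult points of Il1a, Il1b, Il18, Il1rn and Il18bp lie above all others, while Il1rap is lowest in the adult and Il1rl2 highest in the neonatal libraries.

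In the IL-6 family, Osm and Il6 rose in the adult against both younger ages, Lif against neonatal cells and Il11 against neither. Osm (chromosome 14, 84465635 to 84468485, rn6), oncostatin M, a product of activated leukocytes, was at 0, 0.132 and 0 CPM in fetal, 0.385, 0.325 and 0.647 in neonatal and 37.9, 20.5 and 22.3 in adult libraries. The fetal libraries held 0, 3 and 0 counts. Summed over libraries, adult cells held 536 times the fetal level (95% exact counting interval 183 to 2601), and the rise was called (log2 8.88, edgeR adjusted p = 8.65e-07). Without fetal replicate 2 the fit gave log2 11.80 with no fetal count left, which is not a measured ratio. The adult rise of Osm was also called against neonatal cells (log2 5.91, SE 0.429, edgeR adjusted p = 3.51e-06). Between neonatal and fetal cells Osm rose as well, 8.71 times by summed counts (interval 2.65 to 45.2, edgeR adjusted p = 0.0281). That call rests on 24 against 3 counts and was lost without fetal replicate 1 (0.0707), fetal replicate 3 (0.124), neonatal replicate 1 (0.0557) or neonatal replicate 3 (0.0807). Il6 (chromosome 4, 3043231 to 3047807, rn6), a cytokine that fibroblasts and leukocytes both secrete, was at 5.72, 7.23 and 1.7 CPM in fetal, 4.68, 4.41 and 4.01 in neonatal and 128, 47.6 and 34.3 in adult libraries. It was higher in adult than in fetal (log2 3.83, SE 0.595, edgeR adjusted p = 0.000392) and neonatal cells (log2 4.0, SE 0.607, edgeR adjusted p = 0.000435). These values were 3.06 and 3.22 without adult replicate 1. Fetal and neonatal libraries overlapped (log2 -0.17, SE 0.634, edgeR adjusted p = 0.854).

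Lif (chromosome 14, 84496470 to 84499244, rn6), leukemia inhibitory factor, lies next to Osm on chromosome 14 and took a course of its own. It was at 24.7, 29.4 and 28.6 CPM in fetal, 13.3, 13.7 and 13.5 in neonatal and 53.3, 22.3 and 22 in adult libraries. Lif was called lower in neonatal than in fetal cells (log2 -1.03, SE 0.314, edgeR adjusted p = 0.0316) and higher in adult than in neonatal cells (log2 1.27, SE 0.317, edgeR adjusted p = 0.00677). The neonatal fall of Lif missed the threshold when any 1 of the neonatal libraries was left out (edgeR adjusted p = 0.0904, 0.0879 and 0.0892) or without fetal replicate 2 (0.0728) or 3 (0.105). Adult replicate 1 alone lay above the fetal libraries. With it adult and fetal cells did not pass (log2 0.24, SE 0.305, edgeR adjusted p = 0.503), and without it adult cells were called lower (log2 -0.31, edgeR adjusted p = 0.023). Il11, which is known to drive fibroblast activation, was low at all ages, with 2.18 ± 0.901 CPM in fetal, 1.58 ± 0.475 in neonatal and 2.83 ± 1.94 in adult cells (mean ± SD, n = 3), and no pair of ages passed.

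Il6st (chromosome 2, 44290075 to 44319427, rn6), gp130 itself, was the second most abundant member per kilobase at each age. It was at 618, 646 and 363 CPM in fetal, 871, 918 and 872 in neonatal and 1933, 1284 and 1086 in adult libraries. Adult cells were higher than fetal (log2 1.40, SE 0.253, edgeR adjusted p = 0.000882) and neonatal cells (log2 0.69, SE 0.249, edgeR adjusted p = 0.0357). The rise after the neonatal age was narrow. It missed the threshold with adult replicate 1 left out (log2 0.42, edgeR adjusted p = 0.132), as with adult replicate 2 (0.0514) or any 1 neonatal library left out (0.0917, 0.0766 and 0.0927). Neonatal against fetal cells just missed the threshold (log2 0.71, SE 0.249, edgeR adjusted p = 0.0526), and passed without adult replicate 1 (0.0239) or 3 (0.044) and with the replicate number as a block. Il6r (chromosome 2, 189205699 to 189254552, rn6), the binding chain for IL-6, rose at both steps with little spread. Its means were 3.89 ± 0.37, 9.4 ± 0.281 and 28.8 ± 1.49 CPM by age (log2 1.27, SE 0.111, edgeR adjusted p = 7.22e-05, then log2 1.62, SE 0.103, edgeR adjusted p = 1.68e-06). Osmr (chromosome 2, 56110777 to 56151531, rn6), the chain that pairs with gp130 to bind oncostatin M, was at 85.4, 95.9 and 71.5 CPM in fetal, 183, 185 and 173 in neonatal and 319, 213 and 163 in adult libraries. It rose from fetal to neonatal cells (log2 1.10, SE 0.217, edgeR adjusted p = 0.00525). Adult cells overlapped the neonatal ones (log2 0.36, SE 0.214, edgeR adjusted p = 0.171, 0.56 and 0.0236 without adult replicate 3). The other binding chains Lifr, Il11ra1 and Il27ra passed in no pair with all libraries in the fit. Without fetal replicate 3, Il27ra passed between neonatal and fetal (log2 0.54, edgeR adjusted p = 0.0269) and adult and neonatal cells (log2 -0.61, edgeR adjusted p = 0.00559). The first also passed without fetal replicate 2 (log2 1.35, edgeR adjusted p = 0.0388). Without fetal replicate 3 and adult replicate 1 together, Lifr was lower in adult than in fetal (log2 -1.18, edgeR adjusted p = 0.011) and neonatal cells (log2 -0.79, edgeR adjusted p = 0.0499). Lifr stood at 16.3 ± 5.57, 14.7 ± 2.64 and 13.2 ± 8.7 CPM and Il11ra1 at 57.7 ± 13.6, 71.5 ± 3.17 and 73.4 ± 12.5 CPM in fetal, neonatal and adult cells. Il31ra had at most 2 counts in any library.

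**Figure D3:**
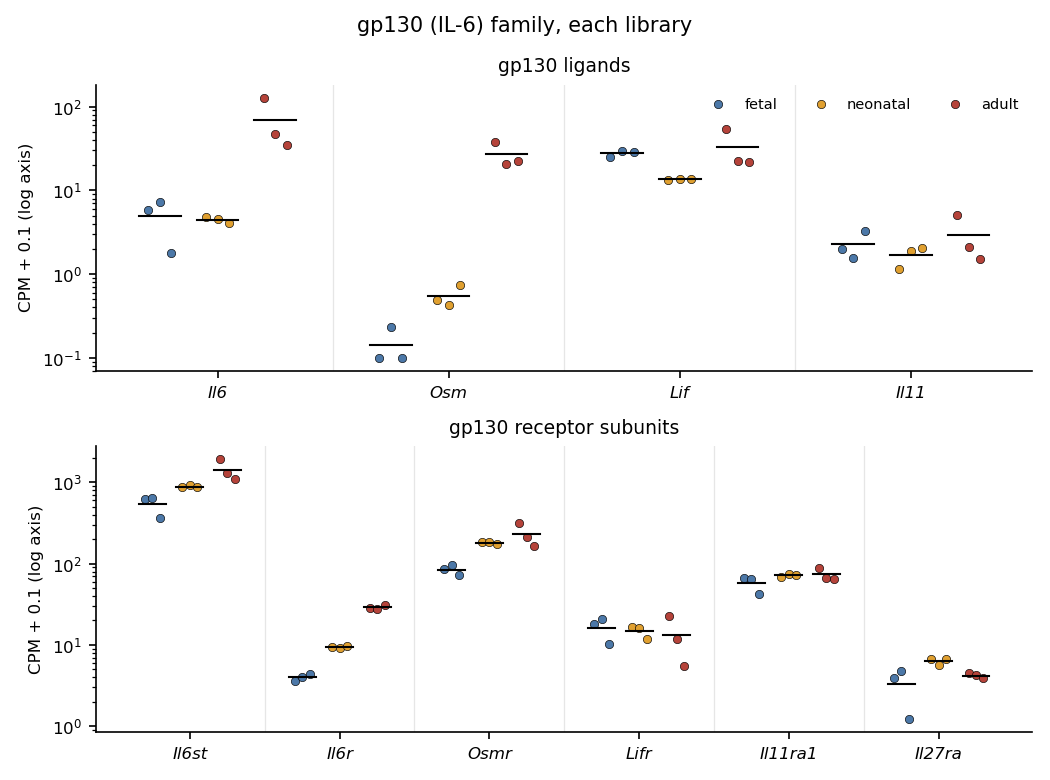
CPM plus 0.1 on a log axis of the IL-6 family in each library (points) with the mean of each age (horizontal lines), ligands on top and receptor subunits below. Osm and Il6 are highest in the 3 adult libraries, Il6r steps up at each age, and Lifr overlaps between ages.

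Receptors of the gamma chain group and of IL-4 and IL-13 were led by Il4r and Il2rg. Il4r (chromosome 1, 196942367 to 196967221, rn6), the chain shared by IL-4 and IL-13, was at 61.1, 63.4 and 53.7 CPM in fetal, 91.9, 95.7 and 99.6 in neonatal and 431, 306 and 326 in adult libraries. It rose at both steps, by log2 0.69, SE 0.126, edgeR adjusted p = 0.00327 and then log2 1.89, SE 0.128, edgeR adjusted p = 2.38e-06. Only Il1rl1 and Il6st had higher adult means per kilobase. Il2rg (chromosome X, 71165378 to 71169038, rn6), the common gamma chain that is known as a gene of blood-derived cells, was at 0.054, 0 and 0.372 CPM in fetal, 0.715, 0.604 and 0.129 in neonatal and 69.5, 64.5 and 60.3 in adult libraries. It was present in every adult library and at no more than 13 counts in any younger one. Its rise was called against fetal (log2 8.85, SE 0.461, edgeR adjusted p = 3.42e-07) and neonatal cells (log2 6.99, SE 0.391, edgeR adjusted p = 1e-06). The fetal value rests on 1, 0 and 7 counts, and the difference was 11.00 without fetal replicate 3 and 8.19 without fetal replicate 2. Without fetal replicate 3 neonatal cells were also called higher than fetal cells (log2 4.02, edgeR adjusted p = 0.00748, against 1.86 and 0.106). Other partner chains of Il2rg than Il4r were low: Il2ra and Il2rb had at most 14 and 23 counts in any library, Il7r none, and Il21r reached 2.25 ± 0.923 CPM in adult cells. Il13ra1, which joins Il4r in the receptor of IL-13, stood at 1.72 ± 0.468, 1.86 ± 0.356 and 3.13 ± 0.905 CPM. Il13ra2, a decoy for IL-13, peaked in neonatal cells at 2.97 ± 0.219 CPM, against 0.737 ± 0.416 in fetal (log2 1.98, SE 0.395, edgeR adjusted p = 0.00497) and 0.999 ± 0.339 in adult cells (log2 -1.57, SE 0.4, edgeR adjusted p = 0.00695).

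Il15 was the more abundant of the 2 tested ligands of this group. Il15 (chromosome 19, 23542889 to 23554594, rn6), which supports natural killer and memory T cells and is made by many stromal cells, was at 6.48, 7.67 and 5.26 CPM in fetal, 23.4, 24.1 and 24.1 in neonatal and 19, 19.7 and 22.7 in adult libraries. It rose from fetal to neonatal cells (log2 1.88, SE 0.139, edgeR adjusted p = 3.36e-05) and stayed above the fetal level in the adult (log2 1.66, SE 0.14, edgeR adjusted p = 5.52e-06), with adult against neonatal cells not past the threshold (log2 -0.22, SE 0.131, edgeR adjusted p = 0.166, against -0.23 and 0.048 without fetal replicate 3). Neonatal libraries held 173 to 191 CPM of macrophage markers, against 4829 to 6704 in adult ones (Il15 means 23.9 ± 0.383 and 20.4 ± 1.96 CPM). The part of macrophage RNA in these Il15 levels was not tested. Il7, a growth factor for lymphocytes, was at 0.665 ± 0.231 CPM in fetal and 1.46 ± 0.239 in adult cells, a rise that was called (log2 1.11, SE 0.333, edgeR adjusted p = 0.0136) and was lost without fetal replicate 1 (0.0539).

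Il10 and Il10ra were low in the younger cells. Il10 (chromosome 13, 47739526 to 47743392, rn6), an anti-inflammatory cytokine, was at 0, 0.0441 and 0 CPM in fetal, 0.055, 0.0929 and 0.259 in neonatal and 15.9, 2.38 and 1.72 in adult libraries. Adult replicate 1 held 208 counts and the other two 33 and 23, while no younger library exceeded 4. By summed counts adult cells were 394 times above fetal cells (95% exact counting interval 70.02 to 15600, edgeR adjusted p = 0.000626). The fitted log2 difference of 8.13 was 6.45 without adult replicate 1 and 9.79 without fetal replicate 2. The fit that gave 9.79 had no fetal count left, so that value is not a measured ratio. The difference from neonatal cells was log2 5.62, SE 1.09, edgeR adjusted p = 0.00168, or 3.93 without adult replicate 1 and 6.32 without neonatal replicate 3. Il10ra (chromosome 8, 49560181 to 49573710, rn6), which binds IL-10 on leukocytes, was at 0.108, 0.0441 and 0.0531 CPM in fetal, 0.66, 0.232 and 0.259 in neonatal and 7.88, 13.7 and 12.4 in adult libraries. Its adult level exceeded the fetal one 171 times by summed counts (interval 66.2 to 629, edgeR adjusted p = 1.44e-06). It also exceeded the neonatal one (log2 4.86, SE 0.397, edgeR adjusted p = 7.51e-06, 5.49 without neonatal replicate 1). Its neonatal rise over fetal cells (edgeR adjusted p = 0.0231, 21 against 4 counts) was lost without fetal replicate 2 (0.0712), fetal replicate 3 (0.062) or neonatal replicate 1 (0.0796) and with the replicate number as a block. The second chain Il10rb (chromosome 11, 31560530 to 31582457, rn6), which most cell types carry, rose by smaller steps with little spread. Its means were 28.7 ± 1.2, 43.6 ± 2.27 and 79.7 ± 3.37 CPM by age (log2 0.60, SE 0.07, edgeR adjusted p = 0.000319, then log2 0.87, SE 0.0693, edgeR adjusted p = 6.4e-06).

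In the IL-17 family, 4 of the 5 receptor genes could be tested and 1 of the 5 ligand genes. The untested receptor gene Il17rb, for IL-17B and IL-25, had at most 12 counts in any library. Il17a and Il17c had no count and Il17f and Il25 at most 4, and the remaining ligand Il17b was at 3.58 ± 0.201, 1.47 ± 0.0745 and 4.57 ± 1.11 CPM. Il17ra (chromosome 4, 152995865 to 153018394, rn6), the shared receptor chain, was at 56.2, 57.2 and 43.8 CPM in fetal, 81.1, 82.5 and 81 in neonatal and 134, 142 and 152 in adult libraries. It rose at both steps (log2 0.64, SE 0.101, edgeR adjusted p = 0.00165 and log2 0.80, SE 0.101, edgeR adjusted p = 0.000103). Il17re (chromosome 4, 145413958 to 145426607, rn6), the partner chain for IL-17C, was at 2.27, 2.42 and 2.02 CPM in fetal, 7.26, 7.15 and 6.34 in neonatal and 33.2, 16.5 and 15.9 in adult libraries. It also rose at both steps (log2 1.63, SE 0.299, edgeR adjusted p = 0.00334 and log2 1.65, SE 0.272, edgeR adjusted p = 0.000562). Il17rc, the partner chain for IL-17A and IL-17F, lies just downstream of Il17re (chromosome 4, 145427415 to 145439845, rn6). Its neonatal mean was 14.9 ± 0.835 and its adult mean 22.3 ± 3.72 CPM. Only the second step was called (log2 0.58, SE 0.128, edgeR adjusted p = 0.0031, against log2 0.21, SE 0.129, edgeR adjusted p = 0.217 at the first). Il17rd (chromosome 16, 2670618 to 2731610, rn6), known as an antagonist of FGF signalling, fell at both steps, from 3.33 ± 1.35 to 1.13 ± 0.0531 and 0.296 ± 0.299 CPM. The first step was small in counts (log2 -1.55, SE 0.502, edgeR adjusted p = 0.0375), as was the second (log2 -1.90, SE 0.669, edgeR adjusted p = 0.0319). Each missed the threshold when any 1 neonatal library or adult replicate 2 was left out, and the second was -2.87 without adult replicate 3.

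3 further genes of mixed families rose at both steps. Il16 (chromosome 1, 145781928 to 145870912, rn6), a chemoattractant released from a precursor in leukocytes, was at 2.48, 2.91 and 4.36 CPM in fetal, 6.16, 7.71 and 7.96 in neonatal and 39.8, 33.8 and 28.1 in adult libraries. No ages overlapped (log2 1.16, SE 0.224, edgeR adjusted p = 0.00413 and log2 2.22, SE 0.207, edgeR adjusted p = 1.62e-05). Il34 (chromosome 19, 40890544 to 40904364, rn6), the second ligand of the macrophage growth factor receptor Csf1r, was at 0.486, 0.441 and 0.212 CPM in fetal, 1.16, 0.929 and 1.03 in neonatal and 15.2, 10.1 and 8.16 in adult libraries. Its adult rise (log2 3.42, SE 0.311, edgeR adjusted p = 1.41e-05) was large, and its neonatal rise (log2 1.42, SE 0.386, edgeR adjusted p = 0.0193) was lost without fetal replicate 3 (0.0568) or neonatal replicate 1 (0.059). Il3ra (chromosome 12, 18534763 to 18540166, rn6), the alpha chain for IL-3, was at 8.1, 6.13 and 4.51 CPM in fetal, 10.7, 12.8 and 12.7 in neonatal and 44.9, 43.4 and 30.8 in adult libraries. Both of its steps were called (log2 0.95, SE 0.217, edgeR adjusted p = 0.00947 and log2 1.72, SE 0.207, edgeR adjusted p = 8.18e-05). Its ligand gene Il3 had 1 count in all libraries together and Il5 and Il5ra none. In the IL-12 family, Il12b and Il12rb1 had at most 1 count in any library. Il23a reached 1.12 ± 0.279 CPM in adult cells, and Il12rb2 was highest in fetal cells, at 1.99 ± 0.314 CPM against 0.532 ± 0.122 in neonatal cells (log2 -1.89, SE 0.296, edgeR adjusted p = 0.00153).

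**Figure D4:**
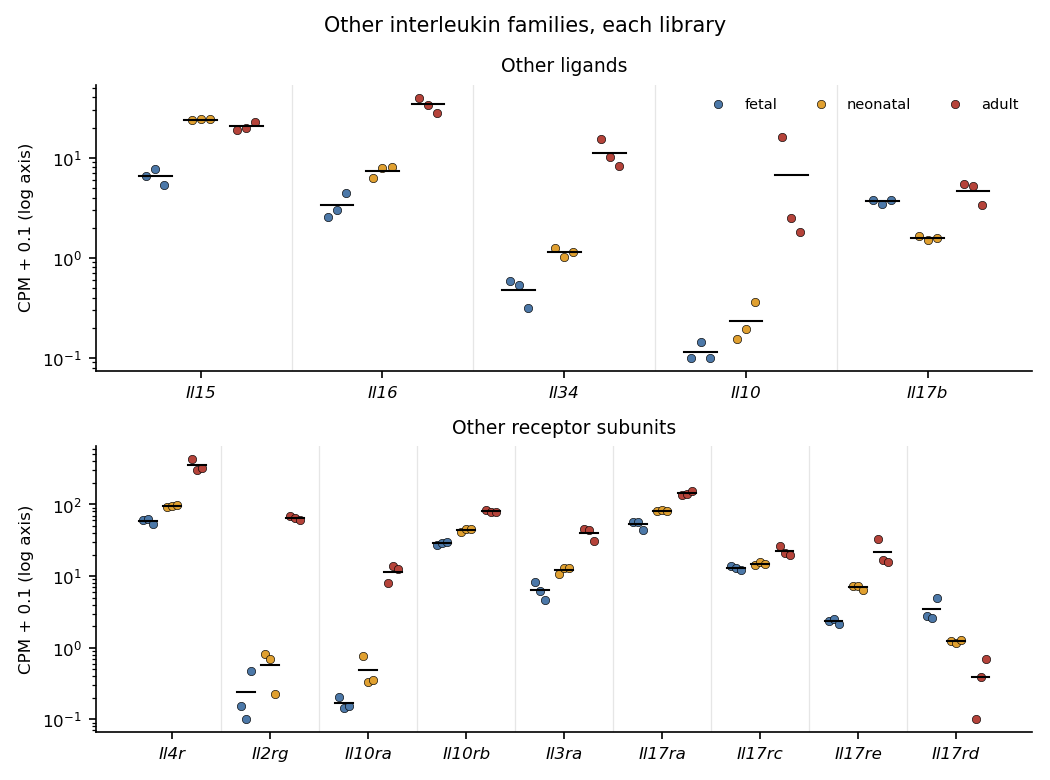
CPM plus 0.1 on a log axis of members of the other families in each library (points) with the mean of each age (horizontal lines), ligands on top and receptor subunits below. Il15 reaches its level by the neonatal age, Il2rg and Il10ra appear in the adult, and Il17rd declines.

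Seen as courses over the 3 ages, 22 of the 43 tested members were higher in adult cells than in both younger ages, a course taken by 26.5% of all tested genes, and 2 (Il1rap and Il17rd) were lower than in both, against 26.7%. Steps up at both transitions were called for 11: Il3ra, Il4r, Il6r, Il10ra, Il10rb, Il16, Il17ra, Il17re, Il18bp, Il34 and Osm, against 8.19% of all genes. 4 members rose by the neonatal age and were not called afterwards (Il1r1, Il1rl1, Il15 and Osmr, against 5.58% of all genes), 2 peaked in neonatal cells (Il1rl2 and Il13ra2, against 4.53%) and 3 were lowest there (Il33, Lif and Il17b, against 4.01%). By role, 12 of the 16 tested ligands were higher in adult than in neonatal cells and none was called lower, where 31.6% of all tested genes were higher and 31.8% lower. Some of these ligands, and the receptor genes Il2rg and Il10ra among the 22, had few counts outside the adult libraries and passed the abundance filter through them. Such members could hardly be called lower in adult cells. Of 23 receptor subunits 11 were higher, 3 lower and 9 not called.

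**Figure D5:**
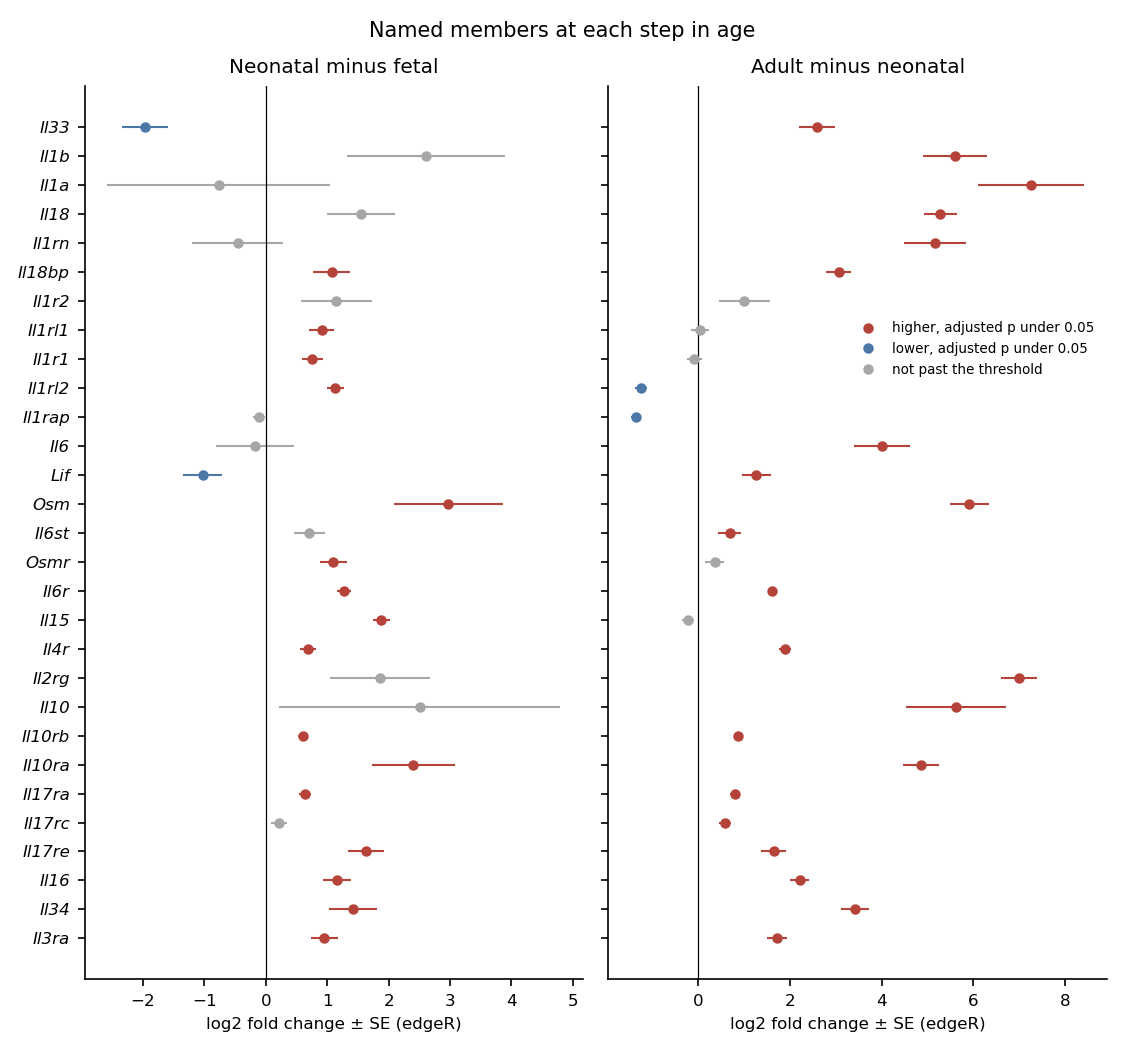
Log2 fold change (points) with its standard error (bars) of the 29 members named by level, from fetal to neonatal (left) and from neonatal to adult cells (right). Il1a, Il1b, Il18, Il1rn, Osm, Il6, Il2rg, Il10 and Il10ra have their large step on the right, Il15, Osmr, Il1r1 and Il1rl1 on the left, and Il33 and Lif change direction.

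The same 2 receptor genes led the order of levels per kilobase of exon at every age. In fetal cells the order ran from Il1rl1 (178 ± 54.7 CPM per kilobase) through Il6st (72.7 ± 20.9), Il1r1 (51.3 ± 5.06) and Lif (45.3 ± 4.16) to Il11ra1 (33.7 ± 7.97), with Il6st and Il1r1 overlapping, as did Il1r1 and Lif. Neonatal cells ran from Il1rl1 (335 ± 3.31) through Il6st (119 ± 3.61), Il1r1 (86.7 ± 4.61) and Osmr (62.5 ± 2.28) to Il15 (48.8 ± 0.783), without overlap between neighbours. In adult cells Il1rl1 (345 ± 39.6) and Il6st (192 ± 59.4) were again first, followed by Il4r (101 ± 19.2), Il1r1 (81.9 ± 21.8), Osmr (80.2 ± 27.6) and Il6 (67.1 ± 48.8), and neighbours from Il4r onward overlapped. Il6 had the highest mean among adult ligands per kilobase, and Lif (53.4 ± 29.5) overlapped it. Il6st and Il1rl1 together held 54.5% to 69.5% of all member counts in each library.

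Other genes of these pathways were counted from a list of 43, of which 39 were tested. It holds adaptors, kinases, STAT and NF-kB factors, feedback inhibitors, further receptor chains, the protease gene Casp1 and further ligand genes (Cntf, Ctf1, Clcf1 and Ebi3 among them). In adult against fetal cells 30 were higher and 6 lower, in adult against neonatal cells 24 higher and 6 lower, and in neonatal against fetal cells 15 higher and 1 lower, beside the shares of all genes given above. The medians were 0.954, 0.699 and 0.204 on the log2 scale. The same 6 were lower in both adult comparisons: Cntfr, Ctf1, Ptpn11, Socs2, Tab2 and Traf6. The 6 with the smallest adjusted p for adult against fetal cells were all higher. Irak3, an inhibitor of MyD88 signalling, was at 9.04 ± 0.541, 40 ± 2.48 and 87 ± 22 CPM in fetal, neonatal and adult cells (log2 3.26, SE 0.174, edgeR adjusted p = 3.03e-07). Myd88, the adaptor of the IL-1 receptors, had means of 25 ± 3.63, 39.6 ± 1.98 and 87.2 ± 7.27 CPM (log2 1.80, SE 0.113, edgeR adjusted p = 8.34e-07). Stat2, an interferon-pathway factor, had means of 44.4 ± 5.16, 81.2 ± 3.27 and 143 ± 13.9 CPM (log2 1.69, SE 0.103, edgeR adjusted p = 6.88e-07). Casp1, which cleaves the IL-1 beta and IL-18 precursors, was at 0.322 ± 0.33, 1.03 ± 0.33 and 32.6 ± 1.62 CPM (log2 6.65, SE 0.428, edgeR adjusted p = 1e-06, 7.74 without fetal replicate 3). Csf2rb, the common beta chain that pairs with Il3ra, was at 0.786 ± 0.932, 3.5 ± 0.73 and 110.4 ± 27.6 CPM (log2 7.17, SE 0.512, edgeR adjusted p = 3.01e-06, 8.78 without fetal replicate 3). Crlf2, a receptor chain for TSLP, was at 10.4 ± 1.88, 11.4 ± 1.66 and 52 ± 5.57 CPM (log2 2.32, SE 0.155, edgeR adjusted p = 1.22e-06). The macrophage markers named above were higher in the same adult libraries, and their part in these counts was not tested.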

How the data were processed

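Gene expression was measured by RNA sequencing in 9 libraries of cultured cardiac fibroblasts. The deposited values are raw gene counts, which the authors made with featureCounts 1.6.3 from an rn6 gene annotation with no strand or pairing option, per the file headers. FastQC, Trimmomatic 0.39, STAR 2.5.2b and DESeq2 are named in the submitters' processing notes. Exon length in bases came from the same deposited table. The authors' normalized table was not used. Without strand, reads in bases shared by overlapping genes are not assigned, which among the members concerned 5 bases of Il11ra1.

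From the counts, all 17337 genes were filtered by filterByExpr (11337 kept), scaled by TMM and fitted with edgeR 4.0.16 in R 4.3.3 (robust glmQLFit and glmQLFTest, 9 libraries, age the only term), with Benjamini-Hochberg adjustment over all genes tested and a threshold of 0.05. The fit was tested on simulated data. Each standard error is the size of the log2 difference divided by the square root of its F value. Where an age had at most 3 counts in each library, summed counts scaled by library size are compared with an exact 95% interval, which covers counting error only. Alternatives used DESeq2 1.42.0, other scalings and filters, adjusted p under 0.01, a log2 fold change of at least 1, the 2 ages alone, each library left out and the replicate number as a block. Libraries of 1 age differed by more than counting error (chi-square per degree of freedom 2.05 to 97.3). Members, lists and tests were chosen with earlier results of these data known. Values per library are given for members called in at least 1 pair of ages whose highest age mean reached 5 CPM, at most 30 (29 qualified), and for 6 signalling genes by adjusted p. Other members are named by counts and ranges, some after their values were seen.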

Additional observations from a re-analysis of the deposited data

How the results depend on the processing

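The counts of interleukin genes called in each pair of ages stayed within 1.5 times under every alternative run. Leaving out 1 library gave 16 to 24 for neonatal against fetal, 31 to 36 for adult against fetal and 27 to 36 for adult against neonatal cells. Without fetal replicate 3 and adult replicate 1 together, an alternative chosen after seeing the data, they were 30, 37 and 37. No pairing by replicate number was seen: deviations from the age means correlated at -0.0649 to 0.0521 across genes for libraries of the same number, against -0.0551 to 0.0797 for others. A shared effect that is small or limited to few genes could escape such a correlation over all genes. With the replicate number as a block, 22, 32 and 29 members were called. The share of all tested genes called under these alternatives is not given. The counts here and those of the signalling list below therefore have no background beside them. For single named genes, 1418 values under the alternatives stayed on their side of the threshold, 24 lost the call, 27 gained one and 4 passed it with the sign turned. Some values past the threshold neither before nor after also changed sign, such as Il1a between neonatal and fetal cells (-1.42 to 4.43, -0.77 in the report's fit). The 4 were 1.23 for Il1rn between neonatal and fetal cells without fetal replicate 3 (also 1.23 without both libraries) and -0.31 for Lif between adult and fetal cells without adult replicate 1 (-0.29 without both), and the cause was not tested. Their lowest and highest values with 1 library left out were -0.941 and 1.23 for Il1rn and -0.31 and 0.455 for Lif.

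For the signalling list, the neonatal against fetal count of 16 became 9 at adjusted p under 0.01 and 25 without fetal replicate 3 and adult replicate 1 together. Requiring also a log2 difference of 1 or more lowered the counts from 16, 36 and 30 to 4, 21 and 19. Leaving out 1 library gave 11 to 19, 33 to 35 and 26 to 31. With library size alone as the scaling, the median log2 difference of all genes was -0.175 for neonatal and -0.122 for adult against fetal cells (-0.0053 and -0.0127 with TMM), and the split of members was 17 higher and 5 lower and 27 higher and 4 lower. Depth limits Il1a, Il1b, Il18, Osm, Il2rg, Il10, Il10ra, Il34 and Il23a, whose fetal libraries held at most 15 counts each.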

Other observations

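Fetal replicate 3 differed from the other fetal libraries in several members. Il24, a cytokine of the IL-10 family, had 163 counts there, or 8.66 CPM, against 2 and 0 counts in fetal replicates 1 and 2, 0 in all neonatal and at most 2 in any adult library. The same library held 98.4 CPM of Il33 against 37.1 and 41.1, 8.71 CPM of Il1rn against 1.3 and 0.97, and 6.05 CPM of Il1r2 against 0.918 and 1.15. It was the lowest fetal library for Il1rl1, at 410 CPM against 723 and 765, and for Il6st, at 363 CPM against 618 and 646. Epithelial and mesothelial markers summed to 388 CPM in it, against 78.7 and 78.4, with Epcam, Krt8, Krt18 and Cdh1 higher and Krt19, Msln and Wt1 not.

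Adult replicate 1 held the highest adult levels of several cytokine genes. Il6 was at 128.5 CPM against 47.6 and 34.3, Il1a at 47 against 13.6 and 9.58, Il1b at 58.5 against 13.9 and 23.1, and Il10 at 15.9 against 2.38 and 1.72. Il18 and Il10ra were lowest in it, at 16.8 against 22.7 and 20.1 CPM and at 7.88 against 13.65 and 12.4 CPM. Among members too scarce to test, Il36b had 3, 9 and 19 counts in adult replicates 1, 2 and 3 and at most 2 in any younger library, and Il2rb had 23, 7 and 3 counts against at most 1.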
